A study of Homo sapiens with 6 samples.

Results

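The comparison described here sets 1 library of LNCaP cells treated with dihydrotestosterone (DHT) against 1 library of LNCaP cells given only the ethanol vehicle. These are 2 of the 6 libraries of the series, which crossed 2 prostate cancer lines with 3 treatments. The members were the 13885 of 21512 gene symbols whose counts averaged 20 or more across the 6 libraries. LNCaP is an established human prostate cancer line that carries an androgen receptor and responds to androgen. Per the labels' protocols, the cells spent 3 days in medium free of phenol red with 2.5% serum stripped of steroids by charcoal and dextran, and were then exposed for 24 h. The groups used below are LNCaP with ethanol, LNCaP with 10 nM DHT, LNCaP with 1 µM bicalutamide (an antagonist of the androgen receptor), and the same 3 treatments in a line named BicR. How BicR was derived is not stated in the sources used here. Each group held 1 library, so no difference could be tested, and the size of each change is given without a p-value. The effect of DHT and the state of a single culture cannot be told apart from these libraries alone.

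The androgen receptor is a transcription factor that is held inactive by chaperones until it binds testosterone or DHT, after which it binds DNA and recruits coactivators. In prostate epithelium its best known targets are secreted kallikrein proteases, the protease TMPRSS2 and the co-chaperone FKBP5. Cells loaded with unfolded secretory protein switch on a separate programme, the unfolded protein response, which raises the chaperones and disulfide isomerases of the endoplasmic reticulum. Dividing cells raise a further set, the kinases, cyclins and spindle proteins of mitosis, late in the cell cycle.

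The libraries held 42162723 to 55917016 counts, with 54380474 in LNCaP ethanol and 55917016 in LNCaP DHT. The summed level of 13 luminal markers was 8021 CPM (counts scaled to the TMM-adjusted library size) in the ethanol library and 11838 in the DHT library. The markers include androgen targets such as KLK3. Of the 13, 7 were higher and 6 lower with DHT, and 4 were at least 2-fold higher. Markers of other cells summed to 29.3 and 23.7 CPM for 8 basal genes and 119 and 104 CPM for 8 neuroendocrine genes. For 9 fibroblast and muscle genes the sums were 78.1 and 66.7 CPM, for 7 endothelial genes 8.28 and 10.4 CPM, and for 9 immune genes 29.8 and 27.3 CPM. The defining markers PTPRC, MS4A1, CDH5, CLDN5 and COL1A2 were at 0 in all 6 libraries. The LNCaP ethanol library stood apart from the other 5 in some shares of its counts. HSPA5, the main chaperone of the endoplasmic reticulum, took 0.790% against 0.131% to 0.164% elsewhere, and 66 mitosis genes took 0.0365% against 0.110% to 0.184%. Cytosolic ribosomal protein genes divided the libraries otherwise. They took 5.82% in LNCaP ethanol and 6.42% in LNCaP DHT, against 3.97% in LNCaP bicalutamide and 3.86% to 4.10% in BicR.

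Differences are DHT minus ethanol in log2(CPM + 1) unless another contrast is named. Adding 1 shrinks the differences of genes at low level. Genes apart by 1 or more, that is 2-fold in CPM + 1, are counted as higher or lower, and 2-fold below means this limit. There were 194 genes (1.4% of those measured) higher and 165 (1.19%) lower in the DHT library. The median of all genes was 0.01. The counts depend on the amount added before the logarithm: with 5 in place of 1 there were 78 and 84, with 0.1 there were 352 and 304, and on the authors' RPKM there were 97 and 76. The median gene counted as higher had 751 counts summed over both libraries and the median gene counted as lower had 1883, and none of them was at 0 in either library. Differences nearest the limit were 1.0001 for HPGD, 1.0020 for FAM72B and 1.0066 for C19orf48 on the inside, and 0.9989 for CP, 0.9971 for E2F1 and 0.9968 for AOC3 on the outside. On the lower side SEC61A1, NBEAL1 and LAMA3 lay just inside at -1.0060, -1.0051 and -1.0046, and NLRP5, ProSAPiP1 and TRAM1 just outside at -0.9983, -0.9971 and -0.9954.

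The bicalutamide library of the same line served to separate these genes. Because bicalutamide blocks the receptor, a gene at the ethanol level there is one for which the DHT library stood apart, and a gene at the DHT level is one for which the ethanol library stood apart. A gene was placed near ethanol when the bicalutamide library lay at most 1 of 3 parts of the way from ethanol to DHT, near DHT when it lay at least 2 of 3 parts of the way, and otherwise between. Of the 194 higher genes 55 (28.4%) were near ethanol, 35 (18%) between and 104 (53.6%) near DHT. Of the 165 lower genes 17 (10.3%) were near ethanol, 46 (27.9%) between and 102 (61.8%) near DHT. It follows from this definition that for the 206 genes near DHT the ethanol library was the lowest of the 3 LNCaP libraries (higher genes) or the highest (lower genes). The place has no outer limit. Bicalutamide lay beyond DHT for 47 of the 104 higher and 39 of the 102 lower genes, so near DHT does not mean level with DHT. Among higher genes that place held the majority only narrowly, and no longer with 5 added before the logarithm (31 of 78) or on the authors' RPKM (39 of 97), where it still held most lower genes (59 of 84 and 54 of 76). The 3 contrasts within LNCaP share libraries, and their values are therefore set side by side without a measure of likeness. Across all genes, 1.08% were 2-fold higher and 1.52% lower in bicalutamide against ethanol, and 1.58% higher and 0.893% lower in DHT against bicalutamide.

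**Figure D1:**
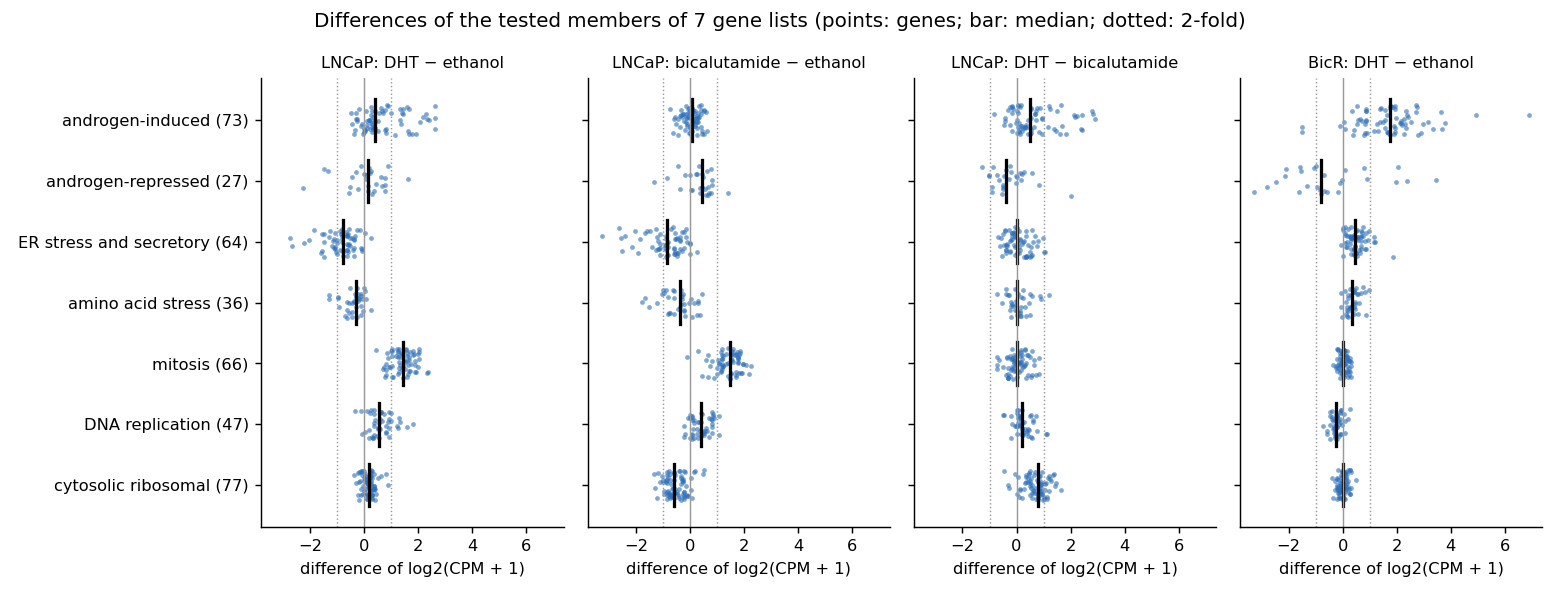
Each point is 1 tested gene of a list and gives its difference of log2(CPM + 1) (x axis) in the contrast named above the panel, with the number of tested members in brackets, the list's median as a black bar and 2-fold marked by dotted lines. The androgen-induced points spread to the right in DHT minus ethanol and DHT minus bicalutamide, whereas the mitosis points (median 1.43) and the endoplasmic reticulum (ER) points (median -0.79) are displaced in both contrasts against LNCaP ethanol. In DHT minus bicalutamide both have medians of 0.01, and in BicR they have 0.02 and 0.44.

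Androgen-induced genes were the clearest group for which the DHT library stood apart. All gene lists were written with earlier results of these data known, so a list's share beside that of all genes is a description only. Of 74 genes on a list of androgen-induced genes 73 passed the filter, and 22 of these were at least 2-fold higher with DHT, beside 1.4% of all genes, with 0 lower. All 22 were placed near ethanol, so with bicalutamide they lay at most 1 of 3 parts of the way to the DHT level, and some lay below ethanol. The DHT library was the highest of the 3 LNCaP libraries for 51 of the 73 (69.9%), against 33.3% of all genes. The median difference was 0.41 against ethanol and 0.48 against bicalutamide, where 19 members were 2-fold higher, while bicalutamide minus ethanol had a median of 0.05 and 0 members past 2-fold. The other 51 genes of the list stayed short of the limit in LNCaP at this time. For genes at low level this does not mean that the ratio of CPM was below 2.

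Secreted and membrane proteases, the products by which androgen action in the prostate is usually read, held 6 of 8 tested members at least 2-fold higher, with a median of 1.78. KLK3, the protease known as prostate-specific antigen, stood at 1402 CPM with ethanol, 5257 with DHT and 979 with bicalutamide, a 3.75-fold difference (95% counting interval 3.72 to 3.78) between DHT and ethanol. KLK2, a related protease that activates KLK3, stood at 121, 636 and 88.2 CPM, a 5.27-fold difference (5.13 to 5.41). TMPRSS2, a membrane protease whose promoter is often fused to ETS genes in prostate cancer, stood at 99.8, 494 and 92.9 CPM, 4.96-fold (4.81 to 5.11). For these genes the ethanol and bicalutamide libraries were closer to each other than to DHT, and the DHT library was several fold above both. KLK4 gave 64.5, 164 and 57.5 CPM and KLK15, a low member of the same cluster, 2.64, 10.4 and 2.74 CPM. PGC, which encodes a gastric-type protease precursor also made in prostate, gave 1.06, 11.7 and 0.709 CPM. The exceptions of this role were ACPP (prostatic acid phosphatase), at 54.1 CPM with ethanol and 42.7 with DHT, and AZGP1 (zinc-alpha-2-glycoprotein), at 72.8 and 92.7 CPM. MSMB did not pass the filter. Such counting intervals cover counting error only and not variation between cultures.

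The promoters of the neighbouring kallikrein genes KLK3 and KLK2 are shown because both genes were at least 2-fold higher with DHT in both lines and hold the same element. The capitals mark GAACANNNAGTGCT, the letters of the androgen response element long described in the KLK3 promoter. Sequences and coordinates are from RefSeq, build GRCh38.p14, 5′ to 3′ on the gene's strand, and were matched to the table by symbol: KLK3 chr19:50854730-50854819, plus strand, KLK2 chr19:50873250-50873339, plus strand.
KLK3: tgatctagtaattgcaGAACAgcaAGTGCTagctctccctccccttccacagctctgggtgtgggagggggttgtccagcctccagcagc
KLK2: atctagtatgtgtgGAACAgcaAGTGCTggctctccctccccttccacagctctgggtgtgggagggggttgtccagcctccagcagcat
These letters were sought on both strands in windows of 300 bases around the start site. They are those of KLK3 itself, so its match was fixed in advance and tests nothing. They occurred in 13 of 27305 RefSeq promoters (0.0476%) and in 4 tested genes with a promoter, HNRNPD, KLK2, KLK3 and PLDN. KLK3 and KLK2 were the 2 holders among the 59 androgen-induced genes with a promoter in the table. The palindromic form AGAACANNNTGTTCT occurred in 1 of 27305 promoters and in 0 of the 59. A single arm, AGAACA, occurred in 6 of the 59 (10.2%), in 14.9% of all promoters and in 8.98% of tested genes with a promoter. A match describes letters only, and a missing match says only that the letters are not in this window.

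Transporters, channels and metalloreductases held 4 of 10 members at least 2-fold higher. SLC45A3, a sugar transporter also called prostein, stood at 90.4 CPM with ethanol, 384 with DHT and 85.0 with bicalutamide, 4.25-fold (4.12 to 4.39). STEAP4, a metalloreductase, had 11 counts with ethanol, 358 with DHT and 5 with bicalutamide, that is 0.220, 6.59 and 0.0958 CPM, and its 29.97-fold ratio has a wide interval (16.6 to 60.6) because of the few ethanol counts. CHRNA2, an acetylcholine receptor subunit, went with it at 1.22, 9.10 and 0.862 CPM. The cold-sensing channel TRPM8 gave 1.40, 5.49 and 0.824 CPM. STEAP4, CHRNA2 and TRPM8 were thus nearly silent without androgen and low with it. The pump ABCC4 gave 98.7, 173 and 120 CPM, short of 2-fold, and STEAP2 and SLC26A2 had differences of 0.10 and -0.30.

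Transcription factors and co-chaperones held 4 of 10 members past 2-fold, with a median of 0.53. FKBP5, a co-chaperone of steroid receptors, stood at 43.0 CPM with ethanol, 132 with DHT and 56.6 with bicalutamide, 3.07-fold (2.92 to 3.22). The zinc finger factor ZBTB16 gave 10.3, 33.6 and 12.4 CPM and the leucine zipper factor MAF 1.02, 4.07 and 1.17 CPM. CREB3L4, a factor of the secretory pathway, had a difference of 0.71, and PER1 and TSC22D3, which glucocorticoids also induce, had 0.35 and 0.24. EAF2, an elongation factor partner, and ZBTB10 had 0.05 and -0.09.

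Metabolic enzymes held 3 of 20 members past 2-fold, and signalling and trafficking genes 2 of 20. The sorbitol dehydrogenase gene SORD stood at 176 CPM with ethanol, 390 with DHT and 219 with bicalutamide, and the lipid phosphatase PPAP2A at 66.5, 172 and 87.7 CPM. HPGD, which inactivates prostaglandins, had 4, 63 and 6 counts. NNMT, which methylates nicotinamide, had 0 counts with ethanol, 46 with DHT and 5 with bicalutamide, and its difference of 0.89 on this scale stayed short of the limit. The fatty acid desaturase SCD (1066 CPM with ethanol and 815 with DHT), ODC1 (553 and 539 CPM), the first enzyme of polyamine synthesis, and ELOVL7 (31.1 and 24.9 CPM) were level or lower. Among signalling genes PMEPA1, which restrains TGF-beta signalling, gave 44.5, 145 and 45.9 CPM, and the MAP kinase phosphatase DUSP4 64.0, 170 and 75.7 CPM. NDRG1, an androgen-induced gene of epithelial differentiation, did not follow them, at 196 CPM with ethanol, 181 with DHT and 117 with bicalutamide. ARFGAP3, ACTN1 and LIFR had differences of -0.50, -0.44 and -0.25.

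Of 5 genes of chromosomes and cytoskeleton on the list, 3 were past 2-fold. CENPN, a centromere protein, stood at 10.3 CPM with ethanol, 69.7 with DHT and 14 with bicalutamide, 6.74-fold (6.15 to 7.41). For CENPN the DHT library stood apart, whereas for the mitosis genes below the ethanol library did. The alpha-tubulins TUBA3D and TUBA3E gave 0.140, 2.91 and 0.230 CPM and 0.120, 2.06 and 0.115 CPM, with at most 7 counts in the ethanol library. Both are near-identical copies whose reads may have been split between them, so their separate values are uncertain. KRT19 and TPM1 had differences of 0.24 and 0.00.

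**Figure D2:**
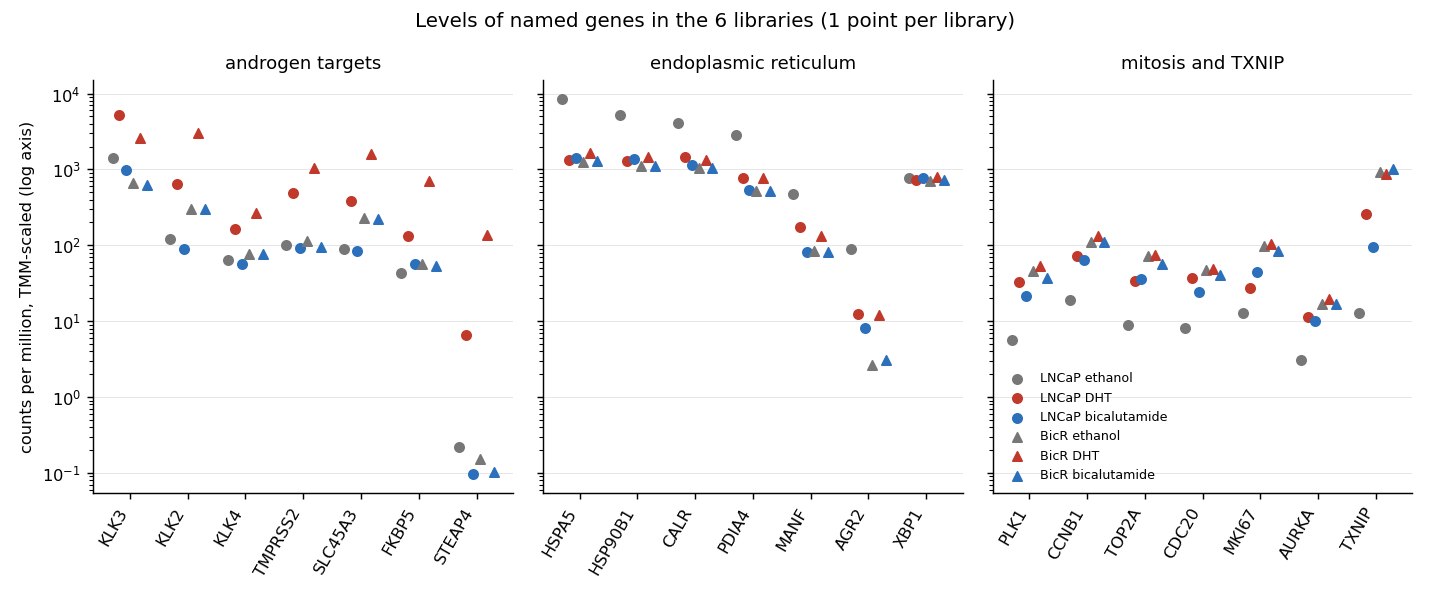
CPM on TMM-scaled library sizes (log axis) of 7 genes per panel, 1 point per library, circles for LNCaP and triangles for BicR, coloured by treatment. In LNCaP the DHT circle stands alone above the other 2 for the androgen targets, and the ethanol circle stands alone for HSPA5 (8594 CPM against 1347 with DHT), HSP90B1, CALR and PDIA4 on the high side and for PLK1, CCNB1 and TOP2A on the low side. For TXNIP the 3 LNCaP circles are all apart, and XBP1 lies at 735 to 780 CPM in the 3 LNCaP libraries.

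Of 28 androgen-repressed genes 27 passed the filter. Here 3 were at least 2-fold lower with DHT, beside 1.19% of all genes, and 1 was higher. MAN1A1, a mannosidase of the Golgi, stood at 40.6 CPM with ethanol, 13.9 with DHT and 29.2 with bicalutamide, and was the member placed near ethanol. TNC, the matrix protein tenascin C, gave 17.9, 2.97 and 6.46 CPM, and PEG10, a retrotransposon-derived gene, 11.02, 3.72 and 5.61 CPM, both with bicalutamide between. ST6GALNAC1, a sialyltransferase, went the other way at 7.26, 24.5 and 5.27 CPM. The median of the list was 0.14 against ethanol and -0.38 against bicalutamide, so its sign depended on which androgen-free library was used. OPRK1 (an opioid receptor) stood at 20.5, 13.8 and 26.1 CPM, FOLH1 (prostate-specific membrane antigen) at 663, 538 and 702 CPM, and UGT2B15, which glucuronidates DHT, at 92.8, 98.4 and 140 CPM. Reads of UGT2B15 and its close relatives may be shared. None of the 20 tested genes of the receptor, pioneer factors, coregulators and receptor chaperones reached 2-fold, beside 1.4% of all genes higher and 1.19% lower. For so few genes this is near the shares of all genes. HOXB13 at 0.84, ETV1 at 0.70 and GATA2 at 0.49 were the highest and NCOA2 at -0.49 the lowest.

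The BicR libraries, which share none with the LNCaP contrast, showed which of these genes differed with DHT in the second line as well. Across all genes 1.45% were at least 2-fold higher and 0.922% lower with DHT against ethanol in BicR. Of the 55 genes higher in LNCaP with bicalutamide near ethanol, 35 (63.6%) were also 2-fold higher in BicR, and the median there was 1.68. Of the 104 with bicalutamide near DHT 1 (0.962%) was, with a median of 0.02, and of the 35 between 4 (11.4%) were. All told 40 genes were higher in both lines, 20.6% of those counted in LNCaP and 19.8% of those counted in BicR. The androgen-induced list had 51 of 73 members past 2-fold in BicR and a median of 1.73, against 22 and 0.41 in LNCaP. STEAP4 gave a difference of 6.88 in BicR against 2.64 in LNCaP, CHRNA2 4.92 against 2.19, and NDRG1 2.37 against -0.11, while KLK3 gave 1.95 and 1.91. These pairs of values describe 2 libraries each, and whether the lines differ was not tested. The 5 genes shared with BicR outside the place near ethanol, named after their values were seen, were NCAPD3 (1.04 in LNCaP, 3.68 in BicR), IGF1, ZNF385B, LOC440905 and BRP44.

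On the lower side there was little in common with BicR. Of the 165 genes lower in LNCaP 4 (2.42%) were also lower in BicR, beside 0.922% of all genes. Another 4 (2.42%) were 2-fold higher in BicR. The 4 lower in both lines were 3.13% of those counted as lower in BicR. They were MAN1A1, PEG10, the glucose transporter SLC5A1 and the angiotensinogen gene AGT, the last named after its value was seen. For the 102 lower genes with bicalutamide near DHT the BicR median was 0.25.

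**Figure D3:**
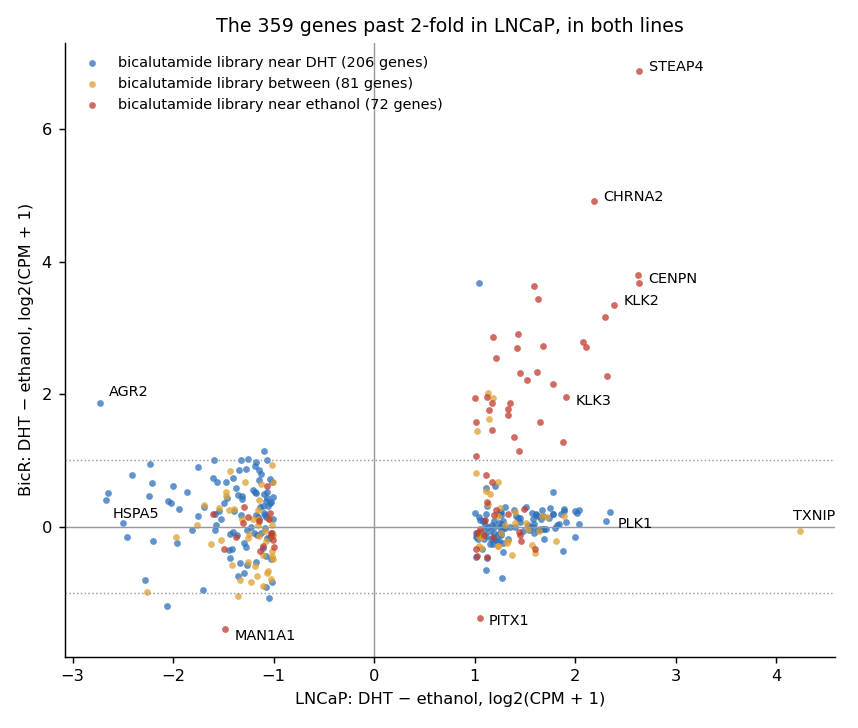
The 359 genes at least 2-fold apart in LNCaP, by DHT minus ethanol in LNCaP (x axis) and in BicR (y axis) on the log2(CPM + 1) scale, coloured by the place of the LNCaP bicalutamide library. Genes with bicalutamide near ethanol climb at the upper right, as KLK2 (2.39 and 3.35) and STEAP4 (2.64 and 6.88), whereas PLK1 (2.35 and 0.22), HSPA5 (-2.67 and 0.40) and TXNIP (4.24 and -0.06) lie along 0 on the BicR axis.

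The 20 genes that were higher near ethanol but not 2-fold higher in BicR formed a different set. They included the thymidine kinase TK1 (21.0, 65.5 and 29.9 CPM with ethanol, DHT and bicalutamide). CKB, LRRC26 and H2AFX, named after their values were seen, gave 639, 1371 and 670 CPM, 16.6, 48.3 and 12.7 CPM, and 25.4, 70.5 and 30.3 CPM. Gene length, estimated from the ratio of counts to the authors' RPKM and set relative to the median gene, had a median of 0.547 in these 20 and of 0.999 in the 35 shared with BicR. The 17 genes lower with DHT and near ethanol had a median of 3.06. RELN, a secreted matrix glycoprotein, stood at 144 CPM with ethanol, 46.8 with DHT and 108 with bicalutamide, ITPR1, a calcium release channel, at 112, 39.5 and 86.8 CPM, and MACF1, a giant cytoskeletal linker, at 264, 118 and 299 CPM. Of these 3 genes none was 2-fold lower in BicR, where the differences were 0.19, -0.33 and 0.09.

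Length moved with the contrast across all genes. In 5 groups of 2777 genes from the shortest to the longest, the median difference ran 0.12, 0.07, 0.02, -0.02 and -0.12 for DHT minus ethanol. For bicalutamide minus ethanol it ran the other way, from -0.22 to 0.23, and for DHT minus bicalutamide from 0.32 to -0.35. In BicR the same medians for DHT minus ethanol stayed between 0.00 and 0.01. With the median of 20 length groups taken out of each contrast, a step added after the data were seen, 47 higher and 9 lower genes were near ethanol in place of 55 and 17, and 36 of the 47 were also higher in BicR. The counts for androgen-induced, mitosis and endoplasmic reticulum genes were then 21, 55 and 23. The cytosolic ribosomal protein genes are short, with a median relative length of 0.249, and 0 of 77 reached 2-fold, beside 1.4% of all genes higher and 1.19% lower. Their median was 0.17 against ethanol, -0.59 for bicalutamide minus ethanol, 0.78 against bicalutamide and 0.00 in BicR. Differences of single genes are printed without this adjustment.

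**Figure D4:**
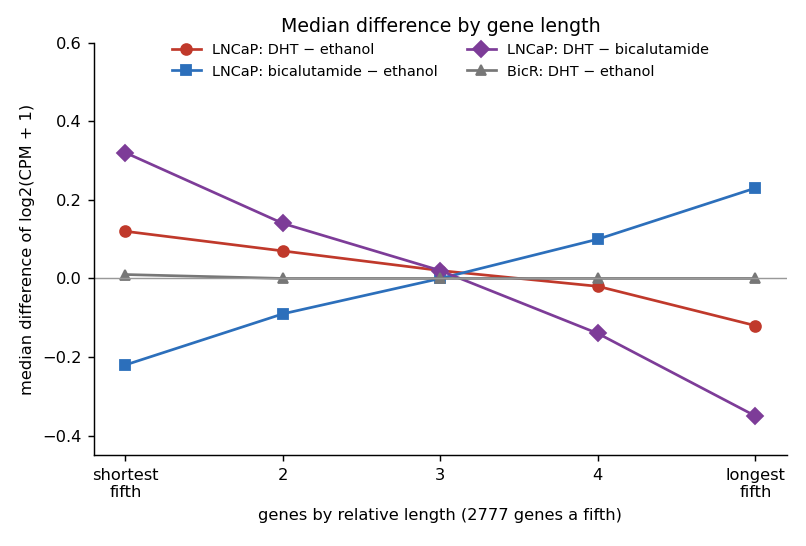
Median difference of log2(CPM + 1) (y axis) in 5 groups of 2777 tested genes ordered by relative length (x axis), 1 line per contrast. The LNCaP lines slope, from 0.12 to -0.12 for DHT minus ethanol and more steeply for the contrasts with bicalutamide, and the BicR line is flat at 0.00 to 0.01.

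Mitosis genes were the largest group among the higher genes, and for them the ethanol library was the one apart. All 66 genes of the list were above 0, 55 were at least 2-fold higher with DHT, beside 1.4% of all genes, and the median was 1.43. The same count, 55, was higher with bicalutamide against ethanol, with a median of 1.46, and in DHT against bicalutamide 0 were past 2-fold and the median was 0.01. Of the 55, 50 were placed near DHT, 5 between and 0 near ethanol. The LNCaP ethanol library was the lowest of all 6 libraries for 65 of the 66 genes (98.5%), against 22.6% of all genes. In BicR 0 of 66 reached 2-fold with DHT and the median was 0.02. With 5 in place of 1 added before the logarithm 25 of the 66 were past 2-fold in LNCaP, and on the authors' RPKM 26 were. In bulk libraries, fewer dividing cells and less RNA per cell cannot be told apart.

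Kinases, cyclins and their regulators held 15 of 18 members past 2-fold. PLK1, the kinase that drives entry into and exit from mitosis, had the highest difference of the list, 2.35, at 5.68 CPM with ethanol, 33.2 with DHT and 21.8 with bicalutamide. CCNB1, the B-type cyclin that activates CDK1, stood at 19.1, 73.4 and 63.3 CPM, 3.84-fold (3.58 to 4.12) for DHT over ethanol. AURKA, a centrosome kinase, stood at 3.04, 11.3 and 10.0 CPM, 3.73-fold (3.12 to 4.48). For each of these the DHT and bicalutamide libraries were far closer to each other than to ethanol. PBK, CCNB2 and FOXM1, the last a transcription factor of this programme, had differences of 2.0, 1.91 and 1.84, and CCNF, TTK and PLK4 had the smallest, 0.80, 0.93 and 0.96.

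Kinetochore and centromere genes held 10 of 14 members past 2-fold, led by BIRC5 (survivin, of the chromosome passenger complex) at 2.04 and HJURP, which loads the centromeric histone, at 2.0, with INCENP at 0.45 the smallest. Spindle motors, spindle proteins and cytokinesis genes held 18 of 19, from HMMR at 2.02 and KIF2C at 1.89 to CKAP2 at 0.74. Chromosome structure and anaphase genes held 12 of 15. CDC20, which activates the anaphase-promoting complex, stood at 8.20 CPM with ethanol, 36.9 with DHT and 24.6 with bicalutamide, and CDCA3, which promotes mitotic entry, at 2.74, 17.6 and 10.3 CPM. TOP2A, the topoisomerase that untangles chromosomes, gave 8.90, 33.9 and 36.3 CPM, and MKI67, the Ki-67 proliferation marker, 12.7, 27.5 and 44.0 CPM. MKI67 was therefore lower with DHT than with bicalutamide, by 0.66, although higher than with ethanol. UBE2S was the smallest of this role at 0.70.

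The promoters of mitosis genes share short elements, and 7 are shown to let the letters be compared between genes that stood lowest in the ethanol library. The capitals mark TTTGAA or, in CCNB1, TTTAAA, which are forms of the cell cycle homology region (CHR) bound by the MuvB complexes that time mitotic genes, and CCAAT, the letters bound by NF-Y, on either strand. The PLK1 window also holds TTTAAA, near its start, in lower case. The windows are from RefSeq, GRCh38.p14: PLK1 chr16:23678799-23678878, plus strand, CCNB2 chr15:59105056-59105135, plus strand, CDC20 chr1:43358871-43358950, plus strand, HMMR chr5:163460542-163460621, plus strand, BUB1B chr15:40160979-40161058, plus strand, MKI67 chr10:128126434-128126513, minus strand, CCNB1 chr5:69167060-69167139, plus strand.
PLK1: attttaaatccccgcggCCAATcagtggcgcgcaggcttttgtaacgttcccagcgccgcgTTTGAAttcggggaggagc
CCNB2: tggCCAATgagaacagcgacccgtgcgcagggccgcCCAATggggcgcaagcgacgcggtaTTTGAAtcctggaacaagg
CDC20: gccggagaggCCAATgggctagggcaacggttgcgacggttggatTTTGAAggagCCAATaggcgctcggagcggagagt
HMMR: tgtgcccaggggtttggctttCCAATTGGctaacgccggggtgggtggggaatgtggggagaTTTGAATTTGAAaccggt
BUB1B: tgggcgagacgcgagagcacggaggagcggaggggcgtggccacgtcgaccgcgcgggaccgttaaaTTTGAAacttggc
MKI67: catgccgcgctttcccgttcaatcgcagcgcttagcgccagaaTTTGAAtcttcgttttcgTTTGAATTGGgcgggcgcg
CCNB1: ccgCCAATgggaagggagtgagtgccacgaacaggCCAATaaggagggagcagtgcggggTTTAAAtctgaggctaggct
TTTGAA was held by 37 of the 57 mitosis genes with a promoter in the table (64.9%), against 15.4% of all 27305 promoters of the same length. It was held by 2 of 42 DNA replication genes (4.76%) and 5 of 59 androgen-induced genes (8.47%). TTTAAA was held by 16 of 57 (28.1%) against 12.3%, and CCAAT by 41 of 57 (71.9%) against 35.7%. Among tested genes with a promoter the shares were 9.61% for TTTGAA, 7.40% for TTTAAA and 36.8% for CCAAT. Among all 104 higher genes near DHT, 84 of which had a promoter, TTTGAA was held by 48 (57.1%). These are shares of letters in the genome, given as a description.

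DNA replication genes followed the same direction by less. Of 47 genes 7 were at least 2-fold higher, beside 1.4% of all genes, and 0 lower. The median was 0.57, with 0.40 for bicalutamide minus ethanol and -0.25 in BicR. The highest were the nucleotide supply genes RRM2, a ribonucleotide reductase subunit, at 2.52 CPM with ethanol, 11.3 with DHT and 6.36 with bicalutamide, TK1 at 1.60 on the log2 scale, and the thymidylate synthase TYMS at 6.16, 16.8 and 11.9 CPM. KIAA0101, ORC6L, UHRF1 and GINS4 were the other members past 2-fold. For this list the DHT library was the highest of the 3 LNCaP libraries in 39 of 47 genes (83.0%), against 33 of 66 (50.0%) for mitosis. The helicase gene MCM3, the clamp PCNA and the polymerase subunit POLE had differences of 0.20, 0.27 and -0.35. Among 20 genes of G1 regulators and p53 targets 1, the cyclin CCND2, was past 2-fold, beside 1.19% of all genes lower. CCND2 stood at 5.56 CPM with ethanol, 1.60 with DHT and 2.78 with bicalutamide. CDKN1A (p21), which holds cells before replication, stood at 852, 443 and 388 CPM, a difference of -0.94.

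Genes of the endoplasmic reticulum were the mirror of the mitosis genes, highest in the ethanol library. Of 64 genes of protein folding, transport and stress sensing 62 were below 0, 23 were at least 2-fold lower with DHT, beside 1.19% of all genes, 0 were higher, and the median was -0.79. Bicalutamide against ethanol likewise had 23 lower and a median of -0.85, and DHT minus bicalutamide had a median of 0.01. Of the 23, 19 were near DHT and 4 between. The LNCaP ethanol library was the highest of all 6 for 48 of the 64 (75%), against 20.5% of all genes. In BicR the list had a median of 0.44 with DHT, with 4 members 2-fold higher and 0 lower, beside 1.45% and 0.922% of all genes.

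Chaperones of the lumen held 11 of 14 members past 2-fold, with a median of -1.38. HSPA5 (BiP), the chaperone that also holds the stress sensors inactive, had 429770 counts with ethanol, 73164 with DHT and 74883 with bicalutamide, that is 8594, 1347 and 1435 CPM, so it was 6.38-fold lower with DHT. HSP90B1 (GRP94), the HSP90 of this compartment, stood at 5191, 1275 and 1353 CPM, and the lectin chaperone CALR at 4147, 1478 and 1140 CPM. HYOU1, CRELD2 and DNAJB11 had differences of -1.60, -1.56 and -1.54, and CANX, FKBP14 and FKBP2 the smallest of the role, -0.82, -0.60 and -0.40. MANF, a secreted stress protein, stood at 479, 172 and 82.0 CPM, and SDF2L1 at 78.7, 37.3 and 18.1 CPM. For MANF and SDF2L1 the DHT library lay 2-fold above bicalutamide, the 2 members of the list of which this was true.

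Disulfide isomerases and oxidases held 6 of 10 members past 2-fold. AGR2, an isomerase of mucin-secreting cells, had the lowest difference of all genes, -2.73, at 88.5 CPM with ethanol, 12.5 with DHT and 8.20 with bicalutamide, and it was higher with DHT in BicR (2.61 and 12.1 CPM). PDIA4 stood at 2800, 770 and 531 CPM and P4HB, the founding disulfide isomerase, at 4078, 1937 and 1754 CPM. Degradation genes held 4 of 12, with DERL3 at -2.21, the scaffold SEL1L at -1.47, HERPUD1 at -1.27 and SELS at -1.04. Translocation and vesicle genes held 2 of 19, SEC24D at -1.15 and the channel subunit SEC61A1 at -1.01. None of the 9 sensors and transcription factors reached 2-fold: EIF2AK3 (PERK), ERN1 (IRE1) and ATF6 had -0.84, -0.81 and -0.67, and XBP1, the factor spliced by IRE1, stood at 780, 735 and 769 CPM. Gene counts do not show whether XBP1 was spliced.

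Stress elements of 8 promoters are shown because several genes lowest with DHT, HSPA5 and HSP90B1 first among them, hold an element that is rare in promoters at large. Not all low chaperone genes hold it (DNAJB11 at -1.54 does not in this window), and XBP1, which does, was level. The capitals mark the endoplasmic reticulum stress response element, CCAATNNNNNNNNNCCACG, on either strand, at which NF-Y and the stress sensor ATF6 are known to bind: HSPA5 chr9:125241380-125241419, minus strand, HSP90B1 chr12:103930311-103930350, plus strand, CALR chr19:12938374-12938413, plus strand, CRELD2 chr22:49918544-49918583, plus strand, XBP1 chr22:28800592-28800631, minus strand (RefSeq, GRCh38.p14).
HSPA5: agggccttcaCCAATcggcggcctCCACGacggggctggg
HSP90B1: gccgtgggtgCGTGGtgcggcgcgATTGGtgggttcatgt
CALR: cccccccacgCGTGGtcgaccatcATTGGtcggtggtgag
CRELD2: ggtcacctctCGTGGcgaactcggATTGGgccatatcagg
XBP1: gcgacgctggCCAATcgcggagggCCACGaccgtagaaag
In the next 3 they mark the second form, ATTGG, any base, CCACG, and in HERPUD1 also TGATGNAA, the amino acid response element bound by ATF4, read from the other strand: HERPUD1 chr16:56931957-56932046, plus strand, HYOU1 chr11:119057260-119057299, minus strand, SDF2L1 chr22:21642099-21642138, plus strand.
HERPUD1: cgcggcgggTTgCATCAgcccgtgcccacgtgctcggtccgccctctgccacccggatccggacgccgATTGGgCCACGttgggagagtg
HYOU1: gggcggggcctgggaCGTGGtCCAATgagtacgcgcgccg
SDF2L1: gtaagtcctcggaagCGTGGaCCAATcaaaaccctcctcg
The first form was held by 22 of 27305 promoters (0.0806%) and by 7 of the 56 list genes with a promoter (12.5%). These were HSPA5, HSP90B1, CRELD2, CALR, CANX, ERO1LB and XBP1. The second form was held by 15 of 27305 (0.0549%) and by 3 of 56 (5.36%). Of these 10 genes 8 were at least 2-fold lower with DHT, while CANX was at -0.82 and XBP1 at -0.09. Among all 27 tested genes found to hold either form 9 were 2-fold lower, beside 1.19% of all genes, and 1, SHCBP1, named after its value was seen, was higher.

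**Figure D5:**
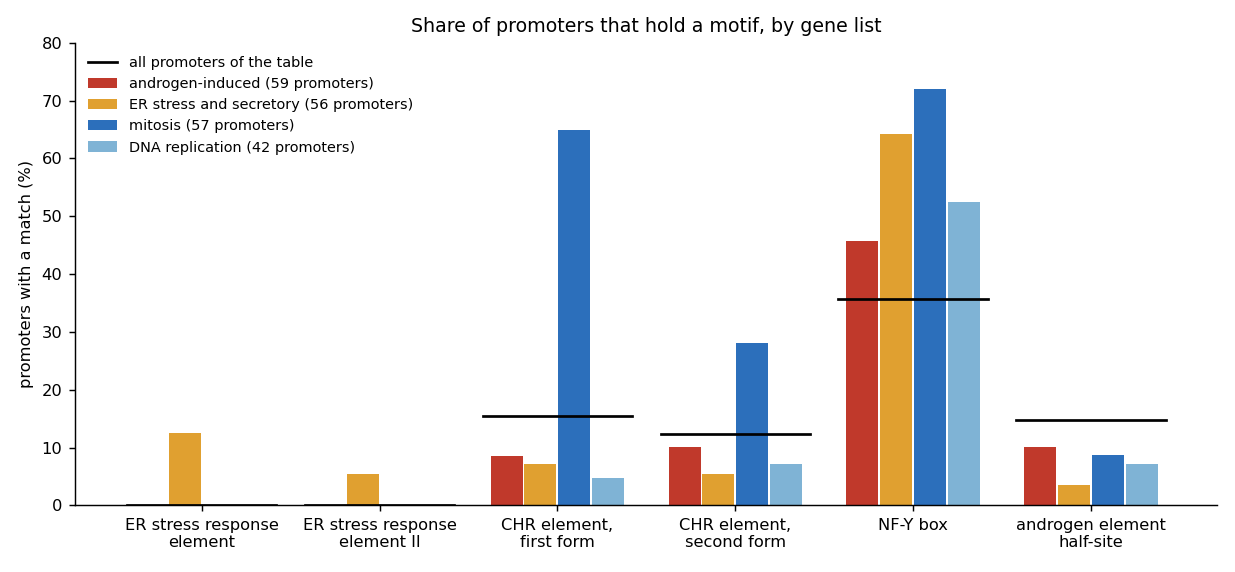
Share of promoters (y axis, %) that hold a motif on either strand, for 4 gene lists (bars, with the number of promoters) and for all 27305 promoters of the table (black lines). NF-Y box means CCAAT, and the first and second CHR forms are TTTGAA and TTTAAA. Mitosis genes stand at 64.9% for the first CHR form against 15.4% of all promoters, and the 2 stress elements occur in the endoplasmic reticulum (ER) list at 12.5% and 5.36% and in no other list drawn. Among tested genes with a promoter, not drawn, the first CHR form had 9.61% and the androgen element half-site 8.98%.

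The neighbouring response to amino acid shortage, run by the factor ATF4, was lower by less. Of 36 genes 33 were below 0 and 2 were past 2-fold, beside 1.19% of all genes, with a median of -0.32. With bicalutamide against ethanol 6 of the 36 were 2-fold lower, beside 1.52% of all genes, and the median was -0.37. SLC3A2, the heavy chain of amino acid exchangers, stood at 1245 CPM with ethanol, 502 with DHT and 360 with bicalutamide, and the stress factor ATF3 at 467, 188 and 147 CPM. ATF4 stood at 1296, 880 and 739 CPM, and DDIT3 (CHOP), a factor of prolonged stress, at 256, 133 and 88.4 CPM. Synthesis enzymes lay close to 0, with PHGDH at -0.10 and PSPH at 0.26, and tRNA synthetases ran from WARS at -0.98 to TARS at 0.04. The windows that hold the element TGATGNAA in ATF3, at -1.31, and in CHAC1, a target of ATF4 that was at -0.45, are shown with it in capitals, on either strand (ATF3 chr1:212565202-212565241, plus strand, CHAC1 chr15:40953248-40953287, plus strand).
ATF3: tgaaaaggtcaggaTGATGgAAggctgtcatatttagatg
CHAC1: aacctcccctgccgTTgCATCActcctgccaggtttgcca
The element was held by 3.67% of all promoters and by 1.73% of tested genes with a promoter. Among 16 cytosolic heat shock genes 1 was past 2-fold, beside 1.19% of all genes lower. It was HSPA6, at 8.24 CPM with ethanol, 0.902 with DHT and 0.977 with bicalutamide. Its pseudogene is close in sequence and may share its reads. HSPA8, HSP90AA1 and HSPE1 had differences of -0.55, 0.37 and 0.55.

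The highest difference of all was that of TXNIP, which binds thioredoxin and slows glucose uptake and is induced by sugar phosphates. It had 645 counts with ethanol, 14177 with DHT and 4999 with bicalutamide, that is 12.9, 261 and 95.8 CPM, a 20.2-fold ratio (18.7 to 21.9) for DHT over ethanol. Bicalutamide lay 0.661 of the way to DHT, just inside the place between. In BicR all 3 libraries were higher still, at 922, 881 and 1018 CPM with ethanol, DHT and bicalutamide. So the DHT library was higher than both other LNCaP libraries, while in BicR the difference was -0.06 for DHT minus ethanol and -0.21 for DHT minus bicalutamide. Its paralogue ARRDC4 stood at 4.86, 7.70 and 7.34 CPM in LNCaP, a difference of 0.57, and TXNRD1, SLC2A1 and MLXIP were at -0.58, -0.42 and -0.18. The general form of the carbohydrate response element was held by 2 of 27305 promoters, and TXNIP was not among them. The letters given next are the form of TXNIP itself, with A for T late in each arm. The match in TXNIP was therefore fixed in advance and tests nothing. The promoter of TXNIP (chr1:145996630-145996689, minus strand) is printed for its carbohydrate response element, the letters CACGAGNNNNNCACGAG in capitals, which 2 of 27305 promoters held.
TXNIP: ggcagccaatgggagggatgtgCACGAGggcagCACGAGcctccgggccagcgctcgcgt

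Genes outside the lists made up 134 of the 165 lower genes and 107 of the 194 higher ones. The lowest of them were mostly low in level and highest in the ethanol library. ODZ4, a teneurin of neuronal surfaces, stood at 13.4 CPM with ethanol, 1.29 with DHT and 3.01 with bicalutamide. CCR2, a chemokine receptor, gave 9.98, 0.939 and 1.36 CPM, and PIRT, a regulator of sensory channels, 9.04, 0.829 and 1.53 CPM. All 3 genes were far lower with DHT and with bicalutamide than with ethanol, and lowest with DHT. FIBIN, the mucin glycosyltransferase GCNT3, the receptor GPR1, C1orf158 and LAMP3 had differences of -2.41, -2.24, -2.23, -2.20 and -2.05. SLC5A1, a sodium-coupled glucose transporter, stood at 71.8, 16.5 and 23.7 CPM. Of the 9 immune markers PTPRC, CD3D and MS4A1 were at 0 in both libraries, and the sum of the 9 was 29.8 CPM with ethanol, the highest of the 6 libraries, and 27.3 with DHT, of which the lysosomal gene CD68 made up 28.5 and 26.2 CPM. Their part in the level of CCR2 was not tested. Among lower genes with bicalutamide between, PLEKHG1, PTPDC1 and CCPG1 had -1.97, -1.69 and -1.47. Over all 102 lower genes near DHT, the ethanol library was the highest of 6 for 101, against 20.5% of all genes. That it was the highest within LNCaP follows from how these genes were chosen.

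Among higher genes outside the lists TARP, a transcript of the T cell receptor gamma locus that prostate cells make under androgen, stood at 0.660 CPM with ethanol, 6.15 with DHT and 0.671 with bicalutamide. Its reads may overlap those of the locus it lies in. FAM64A, CDCA5, ASF1B, RAD54L and TROAP, genes of chromosome handling placed between, had differences of 1.72, 1.64, 1.60, 1.57 and 1.53. Of 10 nuclear long noncoding RNAs 1 was past 2-fold, MALAT1, at 569 CPM with ethanol, 1231 with DHT and 2142 with bicalutamide, and NEAT1 had a difference of 0.41. P4HA2, a collagen hydroxylase, was the 1 of 24 hypoxia and glycolysis genes past 2-fold, at 96.5, 28.1 and 34.1 CPM. The lists of 26 cholesterol and fatty acid synthesis genes, 24 interferon response genes, 16 immediate early genes and 54 small nucleolar RNAs had 0 members past 2-fold. These counts of 0 and 1 member stand beside 1.4% of all genes higher and 1.19% lower. Members toward either end were FASN (fatty acid synthase) at 0.91 and STARD4 at -0.96, HERC6 at 0.74 and IFI35 at -0.17, and NR4A1 at 0.81 and JUN at -0.24.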

How the data were processed

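RNA of LNCaP and BicR cells under 3 treatments was sequenced, 1 library per group and 6 in all, without replicates. The deposited table gives raw read counts and RPKM per gene symbol, per the file headers, for 21512 genes, of which 2988 had 0 counts in every library. Reads were placed on build hg19, as the submitters' processing notes state. Which aligner, counter and annotation the authors used, and whether strand was used, is not given in the sources used here, and reads of near-identical, overlapping or antisense genes may be shared. Every value column was matched to a library by its name.

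Genes averaging 20 or more counts were kept, 13885 in all. Counts were scaled by TMM (edgeR 4.0.16, R 4.3.3) and compared as log2(CPM + 1) with Python 3.11.15, numpy 2.4.6, pandas 2.3.3 and scipy 1.17.1, and drawn with matplotlib 3.10.9. Exact conditional 95% intervals of ratios cover counting error only. No test was possible. The script was checked on simulated data. The authors' RPKM served to estimate relative gene length and as an alternative scale. Other alternatives were DESeq2 1.42.0 size factors, total counts, added amounts of 0.1 and 5, no filter, a mean of 100 counts, bicalutamide as the reference and other limits for the places, while the length adjustment and 3 of the motifs were added after the data were seen. Of 614 genes on 22 lists 613 were in the table and 574 were kept. The members and lists were chosen with earlier results of these data known. Named were the 15 highest and lowest genes, the 6 highest and lowest of each list and role, the 10 highest and lowest of each place and 26 fixed genes, with a selection of these printed; others are said to be chosen after their values were seen. Some genes that this rule names are not reported here. Promoters of RefSeq were matched by symbol for 10773 of the 13885 genes. Shares are given for these 10773 genes and, among lists, only for those with at least 80% matched.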

Additional observations from a re-analysis of the deposited data

Results flagged for a closer look

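Of the genes at least 2-fold apart between DHT and ethanol in both lines, 5 moved in opposite directions, and whether the lines differ was not tested because each group held 1 library. They were named after their values were seen, except for AGR2. AGR2, a disulfide isomerase of secretory cells, had a difference of -2.73 in LNCaP and 1.86 in BicR. WIPI1, which takes part in autophagy, had -1.10 and 1.15. Against bicalutamide in place of ethanol the LNCaP differences of AGR2 and WIPI1 were 0.55 and 0.08, of the same sign as in BicR, so their opposite direction rests on the LNCaP ethanol library. C17orf91 had -1.07 and 1.01, and the neuronal membrane protein SLITRK6 had -1.25 and 1.02. PITX1, a homeobox factor, went the other way, with 1.05 in LNCaP and -1.37 in BicR.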

How the results depend on the processing

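No paired analysis of DHT against ethanol within LNCaP was possible because each group held 1 library and the labels carry no replicate numbers. Over 10 alternatives, of which 9 apply to each count, 163 of 216 values stayed within 1.5 times the main count. DESeq2 size factors, no filter and a mean of 100 counts left every count within that range. The androgen-induced count stayed within it under every alternative run. Total counts moved 1 count, the genes higher in both lines near DHT, to 2, and moved the median of all genes to 0.08. With 5 added before the logarithm there were 78 higher and 84 lower genes, 22 also higher and 1 also lower in BicR (22 near ethanol and 0 near DHT), 25 mitosis and 2 DNA replication genes higher, and by place 30 and 10 near ethanol, 17 and 15 between, 31 and 59 near DHT. With 0.1 added these were 352 and 304, 64 and 36 (8 near DHT), 14 DNA replication genes, 2 androgen-repressed genes higher, 92 and 63 near ethanol, 64 and 94 between and 196 higher near DHT. On the authors' RPKM they were 97 and 76, 26 and 1 (23 near ethanol, 0 near DHT), 26 mitosis and 3 DNA replication genes, 9 lower near ethanol, 20 and 13 between, 39 and 54 near DHT. With limits of 1 and 3 parts of 4 for the places, 58 and 72 were between and 11 lower near ethanol. After the length adjustment 9 lower genes were near ethanol, 0 genes near DHT were higher in both lines, and 4 amino acid stress genes were lower. With bicalutamide in place of ethanol as the reference 0 mitosis genes and 2 DNA replication genes were higher. Of endoplasmic reticulum genes 0 were then lower and 2 higher, of amino acid stress genes 0 lower and 1 higher, and 11 genes were lower in both lines. With that reference 22 of the 181 named genes, all past 2-fold against ethanol, changed sign. Sign changes of named genes short of 2-fold were not counted. These were AGR2 (0.55), AGT (0.09), ATF3 (0.35), CALR (0.37), CRELD2 (0.58), DERL3 (0.42), HERPUD1 (0.24), HYOU1 (0.06), MANF (1.06), P4HB (0.14), PDIA4 (0.54), SDF2L1 (1.01), SELS (0.36), SLC3A2 (0.48), WIPI1 (0.08), BUB1B (-0.08), FAM72B (-0.07), HJURP (-0.17), HMMR (-0.24), MALAT1 (-0.80), MKI67 (-0.66) and TOP2A (-0.09). The cause of these shifts was not tested. With few counts in 1 library, as for STEAP4, HPGD and the TUBA3 genes, depth limits the size of the ratio.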
